A study of Mus musculus with 18 samples.

Results

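Retinal RNA of 7 genes of cholesterol synthesis and its control, Hmgcs1, Idi1, Fdft1, Sqle, Cyp51, Srebf2 and Insig1, was followed by RNA-seq of whole mouse retina. The genes were found by symbol among 35006 gene names, and 7 of 7 were listed. The mice were male. The WT group (3 libraries) was C57BL/6J on plain water, and the WT + NACET group (6 libraries) was the same strain given N-acetyl-L-cysteine ethyl ester, a cell-permeable cysteine derivative, in the drinking water at 0.33 mg/mL, a dose of 50 mg/kg per day. Akita mice (4 libraries) carry the heterozygous Ins2 Akita mutation on the C57BL/6 background, become diabetic because misfolded insulin harms their beta cells, and drank water. Akita + NACET mice (5 libraries) had this mutation and the same drug. Treatment ran from week 4 to week 24 of age. The mutation cannot be read from gene counts, and the sources used here do not say whether 1 library is 1 mouse, so the p-values measure the spread between these libraries, which may be technical.

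Cholesterol is built from acetyl-CoA through mevalonate, isoprene units, squalene and lanosterol. Hmgcs1 encodes the cytosolic HMG-CoA synthase that feeds the mevalonate branch, and Idi1 the isomerase of the isoprene units. Fdft1 encodes squalene synthase, Sqle squalene epoxidase and Cyp51 lanosterol demethylase. The transcription factor SREBP-2, encoded by Srebf2, switches on these enzymes when membrane sterol is low, while the INSIG1 protein holds SREBP-2 and its escort SCAP in the endoplasmic reticulum when sterol is high. Srebf2 and Insig1 are themselves SREBP targets, and the retina both makes cholesterol and takes it up from the blood. None of the 7 genes is an uptake receptor, so they are described here as synthesis genes and their regulators, and the uptake genes are given apart.

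SREBP proteins bind a sterol regulatory element (SRE), for which promoter windows of 250 bases before to 50 bases after the start site were searched on both strands. RefSeq windows on GRCm38.p6 were found for 5 of the 7 genes, Hmgcs1, Idi1, Cyp51, Srebf2 and Insig1. No window was used for Fdft1 and Sqle. The 3 windows with an SRE-like match are shown because an SRE is the element that SREBP proteins bind, with the match in capitals. The Idi1 and Cyp51 windows held no such match.
Hmgcs1 (GRCm38.p6, chr13:119690101-119690400, + strand): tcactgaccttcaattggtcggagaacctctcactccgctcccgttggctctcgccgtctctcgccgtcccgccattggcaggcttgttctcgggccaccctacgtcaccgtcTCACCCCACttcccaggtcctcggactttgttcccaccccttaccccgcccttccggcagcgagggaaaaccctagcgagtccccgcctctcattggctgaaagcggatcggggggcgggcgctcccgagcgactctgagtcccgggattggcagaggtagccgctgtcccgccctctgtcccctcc
Srebf2 (GRCm38.p6, chr15:82147019-82147318, + strand): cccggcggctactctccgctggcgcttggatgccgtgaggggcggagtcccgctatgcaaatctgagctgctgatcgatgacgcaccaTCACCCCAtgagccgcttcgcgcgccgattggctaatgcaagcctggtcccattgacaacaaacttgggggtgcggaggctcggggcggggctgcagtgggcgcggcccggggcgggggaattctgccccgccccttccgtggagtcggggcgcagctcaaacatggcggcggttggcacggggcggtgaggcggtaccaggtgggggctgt
Insig1 (GRCm38.p6, chr5:28071162-28071461, + strand): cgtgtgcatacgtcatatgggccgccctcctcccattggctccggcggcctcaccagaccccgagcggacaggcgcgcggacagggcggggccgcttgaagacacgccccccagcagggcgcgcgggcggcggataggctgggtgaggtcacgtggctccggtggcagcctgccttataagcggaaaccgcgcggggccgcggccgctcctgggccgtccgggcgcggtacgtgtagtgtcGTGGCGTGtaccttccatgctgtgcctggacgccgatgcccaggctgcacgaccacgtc

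The Hmgcs1 window held the full motif TCACNCCAC, first base 137 bases before the start site, which 1.24% of 32851 RefSeq windows hold. Srebf2 held the 8 letters TCACCCCA from 162 bases before the start, found in 1.56% of windows; this motif was added after the windows had been read, and it overlaps the first one in Hmgcs1. The Insig1 match, 9 bases before the start, was to the core CACNCCAC on the reverse strand (6.24% of windows), which lies within the full motif. Insig1 also held the E-box CACGTG (7.15% of windows). The CCAAT box CCAAT and the GC box GGGCGG, partner elements of many SREBP targets, were in all 5 windows, and in 37.4% and 35.7% of all windows. A match describes the letters only.

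Hmgcs1 was listed at 0 counts in all 18 libraries. Its promoter window matched the mm9 assembly, to which the authors aligned, on 2 unplaced contigs only, NT_110857 and NT_166323, and on no chromosome, and the mm9 gene annotation used here has no Hmgcs1 entry. Whether this set the zeros was not tested. No level or fold change is therefore given for Hmgcs1, and the counts below concern the other 6 genes, all of which passed the filter on low counts.

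Idi1 aside, the measured genes had levels of the same order. Levels are given as CPM, the counts scaled to TMM-adjusted library size, and between genes as CPM per kilobase of exon. Insig1 was highest at 32.4 ± 6.85 CPM per kb, followed by Fdft1 at 28.5 ± 4.62, Cyp51 at 20.6 ± 2.30, Srebf2 at 17.5 ± 1.78 and Sqle at 16.9 ± 1.70 (mean ± SD, n = 18 libraries). Insig1 and Fdft1 differed by less than their SDs, and so did Srebf2 and Sqle. Idi1 stood far below at 2.42 ± 0.335 CPM per kb, with 63 to 137 counts per library. Of the 31-base stretches in Idi1 exons, 85.3% occur again on mm9 chromosomes, against 47.7% for Insig1, 29.0% for Fdft1, 3.34% for Sqle, 2.48% for Cyp51 and 0 for Srebf2. Reads that aligned to several places were not counted, so the levels of Idi1, Insig1 and Fdft1 are uncertain between genes. Fdft1 also shares 26.9% of its exon bases with Ctsb, and counting ignored strand. On mm9, Idi1 lies at chr13:8884852-8891641, Fdft1 at chr14:63763990-63796630, Sqle at chr15:59146632-59162747, Cyp51 at chr5:4081145-4104746, Srebf2 at chr15:81977696-82035806 and Insig1 at chr5:28397952-28405201.

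The libraries held from 11590384 to 18073791 gene counts. Akita library 4 stood apart for these genes, with a mean standardized level (SD units from the mean of each gene over the 18 libraries, averaged over the 6 genes) of -2.02, where the other libraries ranged from -0.98 to 1.17. It also had the lowest TMM factor, 0.803, the highest summed level of 6 rod markers, 197400 CPM, and the lowest of 5 Müller glia markers, 777 CPM. Rod and Müller markers showed the labelled tissue to be retina, while 6 optic nerve oligodendrocyte markers summed to 12.3 to 23.7 CPM. In bulk retina, fewer cells of a type and less RNA per cell cannot be told apart. Results that rest on Akita library 4 are given with and without it.

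**Figure D1:**
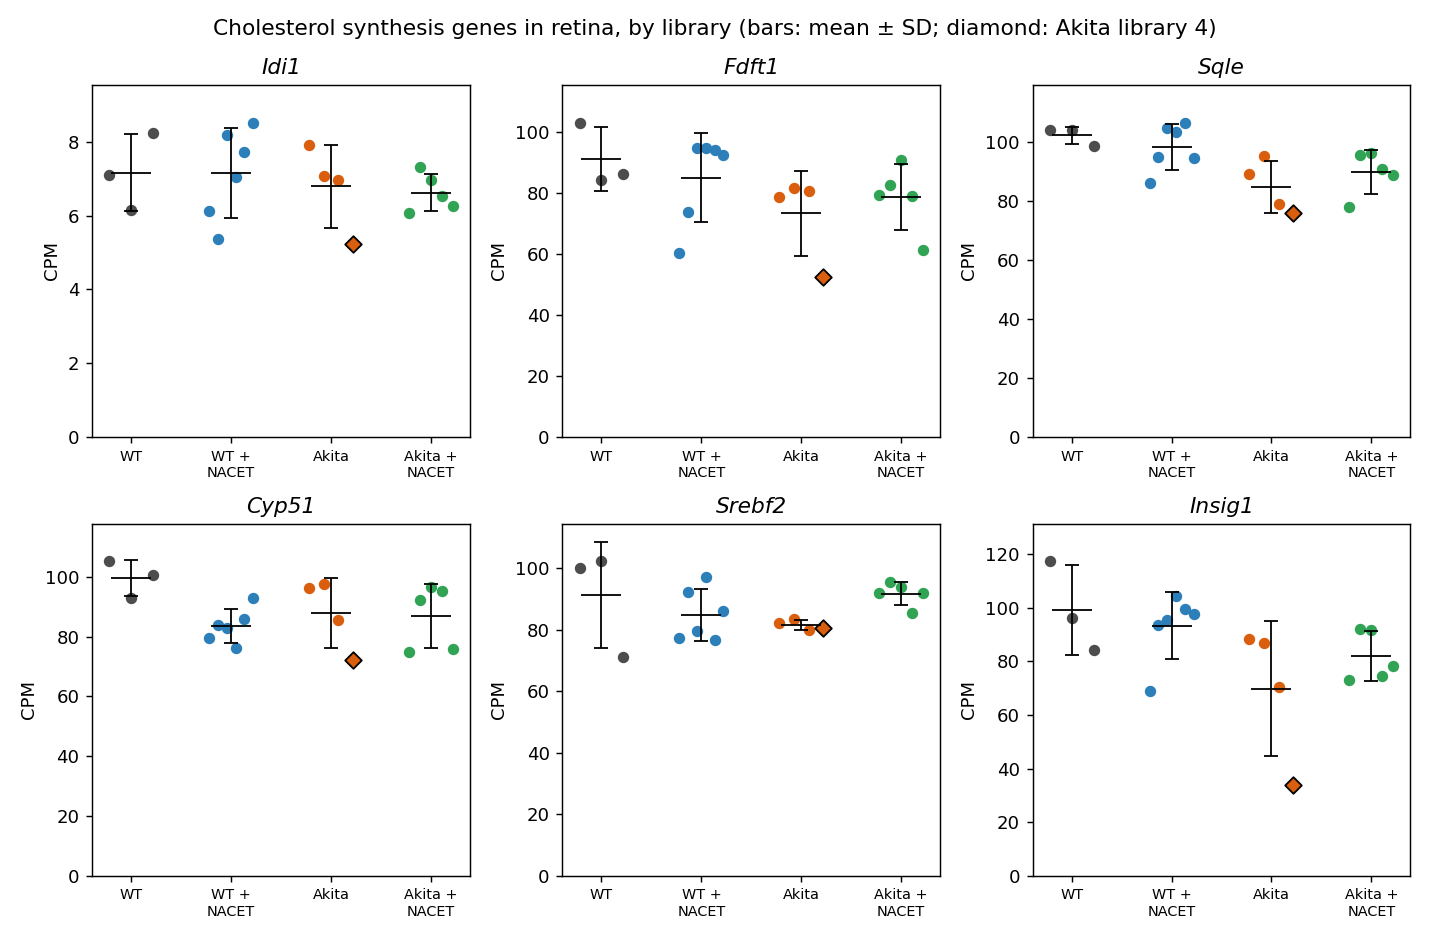
Level of each of the 6 measured genes (y axis, CPM from 0) in every library of the 4 groups (x axis), with mean ± SD as bars and Akita library 4 as a diamond. Insig1 is 33.9 CPM in that library and at least 68.9 CPM in each other one, while Srebf2 there (80.5 CPM) lies beside the other Akita libraries.

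The comparison of Akita with WT asks what diabetes did to these genes. All 6 had lower fitted levels in Akita, and none passed the test of edgeR (quasi-likelihood, adjusted p of at most 0.05), which called 7.64% of 16183 genes. DESeq2 called 0 of the 6, against 2056 of 15849 genes. At an unadjusted p under 0.05 by edgeR there were 2, Sqle and Insig1. The share of all genes at that threshold is not given here, so this number cannot be set against it. The median log2 difference was -0.22 over the 6 genes and -0.01 over all genes tested. Without Akita library 4, 5 of the 6 were lower and their median was -0.17. Without WT library 3, 5 were lower and the median was -0.31. Akita and WT libraries did not overlap for 2 of the 6 genes, Fdft1 and Sqle, against 23.2% of all genes tested.

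Sqle, which makes the first oxygenated sterol precursor, was 104, 104 and 98.6 CPM in WT and 88.9, 94.97, 78.9 and 75.9 CPM in Akita libraries 1 to 4. Every Akita value lay below every WT value. The log2 difference of Sqle was -0.27 ± 0.10 (SE; unadjusted p = 0.0100, adjusted p = 0.0790, edgeR), with a 95% interval of 0.724 to 0.952 for the ratio. Without Akita library 4 it was -0.22 (adjusted p = 0.193), and without Akita library 2 it was -0.33 and passed the test (adjusted p = 0.0459).

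Fdft1, the enzyme that commits isoprene units to sterols, was 103, 84.2 and 86.1 CPM in WT and 78.6, 81.5, 80.6 and 52.5 CPM in Akita. The groups were separate, with 3 of the 4 Akita values just below the lowest WT value. Its log2 difference was -0.31 ± 0.16 (adjusted p = 0.232, edgeR; ratio 0.634 to 1.02), and -0.18 without Akita library 4.

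Insig1, the sterol-sensing brake, had the largest fitted difference of the 6. It was 117, 96.1 and 84.2 CPM in WT and 88.3, 86.9, 70.3 and 33.9 CPM in Akita, so that the groups overlapped and 1 Akita library was far below the rest. The log2 difference was -0.50 ± 0.23 (unadjusted p = 0.0421, adjusted p = 0.168, edgeR; ratio 0.505 to 0.986). Without Akita library 4 it was -0.28 (adjusted p = 0.271).

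Srebf2, the gene of the factor that drives the others, was 100.3, 102 and 71.4 CPM in WT and 82.3, 83.7, 80.1 and 80.5 CPM in Akita. The Akita libraries lay close together, and 1 WT library lay below them all. Its log2 difference was -0.16 ± 0.11 (adjusted p = 0.346, edgeR; ratio 0.767 to 1.04). It varied with the WT library left out. It was -0.09 without WT library 1 (adjusted p = 0.734), -0.07 without WT library 2 (adjusted p = 0.778) and -0.32 without WT library 3 (adjusted p = 0.0408), and the last alone passed the test. A covariate for reads outside exons brought Srebf2 to -0.04 (adjusted p = 0.919, edgeR). With that covariate all 6 genes stayed lower in Akita, with a median log2 difference of -0.28. The share of reads outside exons did not overlap between Akita and WT libraries, so this fit can hardly separate it from genotype.

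Cyp51, which removes a methyl group from lanosterol, was 105, 93.0 and 101 CPM in WT and 96.4, 97.5, 85.6 and 72.2 CPM in Akita, with overlap (log2 difference -0.18 ± 0.11, adjusted p = 0.303, edgeR; -0.10 without Akita library 4, adjusted p = 0.616). Idi1 was 7.11, 6.16 and 8.25 CPM in WT and 7.92, 7.06, 6.97 and 5.22 CPM in Akita, again with overlap. Its log2 difference of -0.08 ± 0.17 (adjusted p = 0.810, edgeR) became 0.02 without Akita library 4 and 0.03 without WT library 3.

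Other measures moved with genotype. The 6 rod markers summed to 129200 to 197400 CPM in Akita and 89630 to 123000 CPM in WT, and the 3 amacrine markers to 176 to 254 and 285 to 391 CPM. The 5 Müller glia markers summed to 777 to 1513 and 1462 to 1731 CPM, with overlap. Without Akita library 4 the Akita sums were 129200 to 143300 CPM for rod, 218 to 254 CPM for amacrine and 1337 to 1513 CPM for Müller markers. No marker of these lists was at 0. Reads outside annotated exons made up 9.67% to 13.3% of those counted in Akita and 14.9% to 17.1% in WT. Their part in the differences above was not tested. The share did not overlap between Akita and WT, so a fit with it as a covariate can hardly separate it from genotype. In that fit edgeR called 0 of the 6 genes and 0 of all genes tested.

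**Figure D2:**
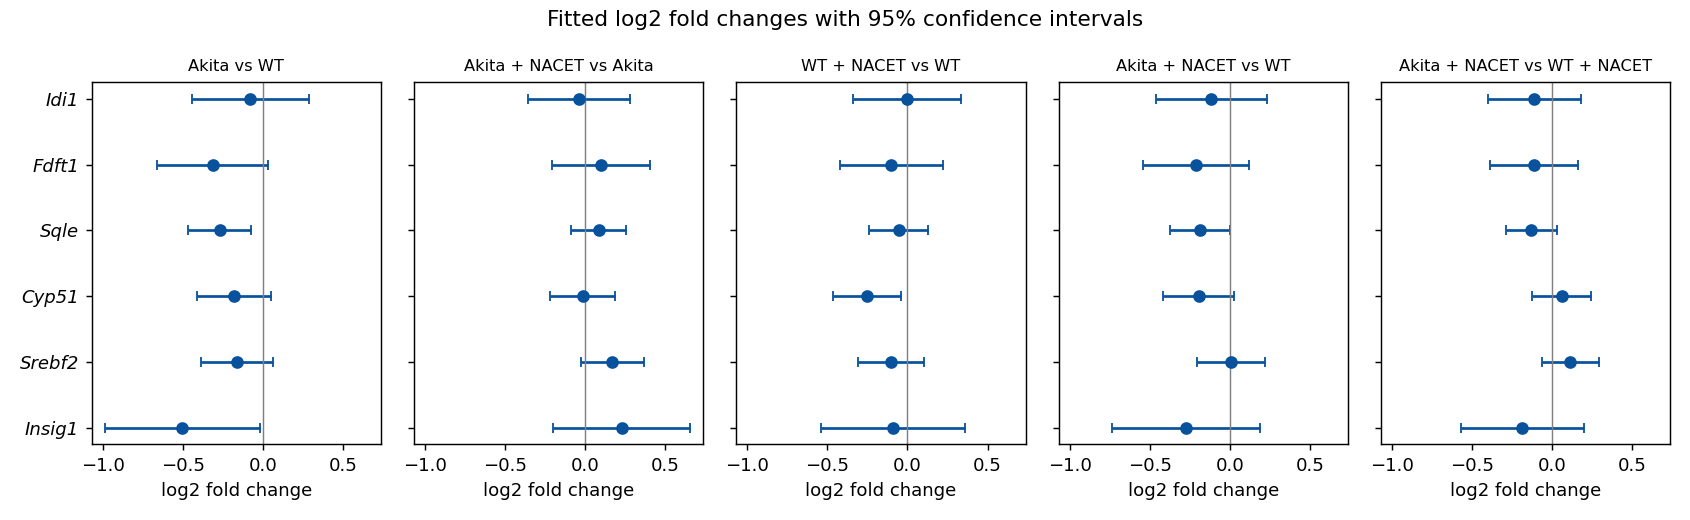
Fitted log2 fold change (x axis) of each of the 6 genes (y axis) in the 5 comparisons of groups, with 95% confidence intervals from the edgeR fit. Points lie left of 0 for 6 of 6 genes in Akita vs WT and WT + NACET vs WT, and on both sides of it in Akita + NACET vs Akita.

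NACET in diabetic mice was compared next. None of the 6 genes passed the test in Akita + NACET vs Akita (edgeR, 0 also at an unadjusted p under 0.05 and 0 by DESeq2), against 9.65% of all genes tested. That background of 1562 genes fell to 1 without Akita library 4 and to 101 without Akita + NACET library 5. The fitted difference was positive for 4 and negative for 2, with a median of 0.09 on the log2 scale, where all genes had -0.003. Without Akita library 4 it was positive for 3 and negative for 3, with a median of -0.01. This comparison shares the Akita libraries with the one before. Groups did not overlap for 1 of 6 genes, Srebf2, against 14.1% of all genes.

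Srebf2 was 92.0, 95.5, 94.1, 85.5 and 92.1 CPM in Akita + NACET. Each value was above the highest Akita value of 83.7 CPM. The log2 difference of Srebf2 was 0.17 ± 0.09 (adjusted p = 0.240, edgeR; ratio 0.982 to 1.29) and 0.16 without Akita library 4.

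Insig1 was 72.9, 91.9, 91.9, 74.6 and 78.2 CPM in Akita + NACET, within the span of 3 of the 4 Akita libraries or just above it. Its log2 difference of 0.23 ± 0.20 (adjusted p = 0.484, edgeR; ratio 0.870 to 1.58) became 0.00 without Akita library 4. Fdft1 was 79.4, 82.6, 90.7, 79.0 and 61.3 CPM, and its log2 difference of 0.10 ± 0.15 (adjusted p = 0.683) became -0.03 without that library. Both of these positive values therefore rested on 1 library.

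Sqle was 77.9, 95.6, 96.1, 90.6 and 88.6 CPM in Akita + NACET (log2 difference 0.08 ± 0.08, adjusted p = 0.535, edgeR; ratio 0.939 to 1.20). Cyp51 was 74.9, 92.3, 96.7, 95.4 and 75.8 CPM (-0.01 ± 0.10; ratio 0.860 to 1.14), and Idi1 6.06, 7.31, 6.96, 6.52 and 6.27 CPM (-0.04 ± 0.15; ratio 0.780 to 1.22). For each of these 3 genes the groups overlapped. Without Akita library 4 the log2 differences were 0.04 for Sqle, -0.10 for Cyp51 and -0.14 for Idi1. Rod marker sums were 83500 to 112900 CPM in Akita + NACET, below every Akita library, and reads outside exons 14.3% to 19.8%; their part was not tested.

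In normoglycemic mice, WT + NACET vs WT gave 0 calls of 6 by edgeR, against 1.48% of all genes tested, and 0 of 6 by DESeq2. At an unadjusted p under 0.05 by edgeR there was 1, Cyp51, and the share of all genes at that threshold is not given here. All 6 fitted differences were negative, with a median of -0.09, and all genes had -0.01. Leaving out 1 library at a time gave medians from -0.16 to -0.02 and 0 to 1 positive values. The median was -0.02 without WT library 1 and also without WT + NACET library 1. Idi1 turned to 0.11 without WT library 3. Cyp51 had the largest difference with all libraries, but not without WT library 3, where Srebf2 had -0.25 and Cyp51 -0.24. In the 6 WT + NACET libraries it ranged from 76.2 to 92.9 CPM with a median of 83.3, just below the lowest WT value of 93.0 CPM, so that the groups did not overlap, as was so for 1 of 6 genes and 11.5% of all genes. The log2 difference of Cyp51 was -0.25 ± 0.10 (adjusted p = 0.180, edgeR; ratio 0.724 to 0.971). For the other genes, the lowest, median and highest WT + NACET values were 60.4, 92.9 and 94.6 CPM for Fdft1, 86.0, 98.9 and 106 CPM for Sqle, 76.7, 82.8 and 97.2 CPM for Srebf2, 68.9, 96.4 and 104 CPM for Insig1, and 5.36, 7.38 and 8.52 CPM for Idi1. Each of these ranges overlapped WT, with log2 differences from -0.10 to -0.01. Other markers moved with treatment. The 2 astrocyte markers summed to 129 to 270.3 CPM in WT + NACET and 33.7 to 79.1 CPM in WT, without overlap, and the 5 pigment epithelium markers to 187 to 734 and 84.4 to 302 CPM. The 2 astrocyte markers differed from each other, with log2 differences of 0.10 and 1.83, and edgeR called 0 of them. The 5 lens markers summed to 26140 CPM in WT + NACET library 5 and to 55.8 to 87.1 CPM in WT. They were also high in diabetic mice, at 3029 CPM in Akita library 2 and 1391 and 402 CPM in Akita + NACET libraries 3 and 5. The part of these in the differences was not tested.

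Treated diabetic mice were set against both WT groups. In Akita + NACET vs WT edgeR called 0 of the 6 genes (0 at an unadjusted p under 0.05) and 0.00618% of all genes, which is 1 gene. Sqle did not overlap between groups (1 of 6, against 4.17% of all genes), with a log2 difference of -0.18 ± 0.09 (adjusted p = 0.9996; ratio 0.772 to 1.002). In Akita + NACET vs WT + NACET it called 0 of 6 (0 at an unadjusted p under 0.05), while 13.3% of all genes were called, and 0 of 6 were without overlap, against 8.01% of all genes. The log2 differences there ran from -0.19 for Insig1 to 0.11 for Srebf2. The interaction, which asks whether NACET acted differently in the 2 genotypes, called 20.3% of all genes and 0 of the 6 (0 at an unadjusted p under 0.05, 0 by DESeq2 in all 3 of these tests). Its values were positive for 5 and negative for Idi1, with a median of 0.22, which was 0.09 without Akita library 4 (Insig1 0.32 and then 0.09, Fdft1 0.20 and then 0.07). Srebf2 had 0.27 ± 0.14 (adjusted p = 0.154, edgeR), which became 0.20 without WT library 1 (adjusted p = 0.375), 0.18 without WT library 2 (adjusted p = 0.393) and 0.44 without WT library 3, where it passed the test (adjusted p = 0.0147). With reads outside exons as a covariate the interaction of Srebf2 was 0.06 (adjusted p = 0.952, edgeR). All 6 values were then positive, with a median of 0.24.

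Levels across the 18 libraries were compared pair by pair. Insig1 correlated with Fdft1 at r = 0.832 and with Sqle at r = 0.808 (Pearson, log2 CPM, n = 18). Without Akita library 4 these values were 0.748 and 0.846, and after subtracting group means 0.796 and 0.723. Cyp51 correlated with Insig1 at r = 0.538 and Idi1 with Insig1 at 0.567, and without Akita library 4 these were 0.365 and 0.340. Srebf2 had r = 0.376 with Insig1 (0.420 without Akita library 4), 0.226 with Fdft1, 0.221 with Sqle, 0.048 with Cyp51 and -0.304 with Idi1. Over all 15 pairs the median r was 0.537, and 0.365 without Akita library 4. These points share library, scaling and cell make-up, and the values describe these libraries only. The coefficient of variation was 21.1% for Insig1 (14.7% without Akita library 4), 16.2% for Fdft1, 13.8% for Idi1, 11.2% for Cyp51, 10.2% for Srebf2 and 10.1% for Sqle.

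**Figure D3:**
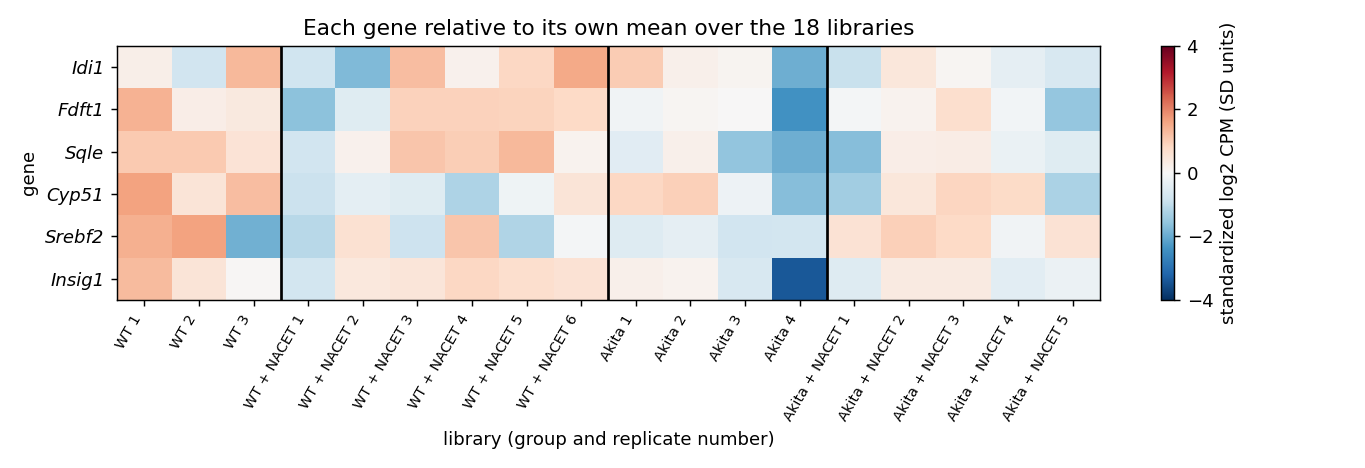
Standardized log2 CPM of each gene (rows) in each library (columns, by group and replicate number), in SD units from the mean of that gene over the 18 libraries, red above and blue below. Akita library 4 is blue in all 6 rows and darkest for Insig1, with a mean over the rows of -2.02. In WT library 3 Srebf2 is the only clearly blue row.

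Outside the cholesterol lists, the 8 genes most like the mean standardized profile of the 6 were Ap1s1 (r = 0.946), Fez1 (0.924), Ngfrap1 (0.922), Itm2c (0.910), Caly (0.901), Fam158a (0.899), Iscu (0.895) and Prmt2 (0.885), over 18 libraries and genes of at least 5 CPM. Over all genes tested the median r was 0.02 and the 5th to 95th percentile -0.66 to 0.66. Of these 8, 3 stayed among the 8 highest without Akita library 4. Within the pathway, the highest were Sc4mol (Msmo1, a sterol demethylating enzyme) with r = 0.884, Acat2 0.853, Tm7sf2 0.848 and the sterol carrier Stard4 0.802. The remaining listed synthesis genes were spread from Sc5d at 0.689 down to Ggps1 at -0.738, with Mvk (0.475), Dhcr7 (0.028) and Lss (-0.196) between. At the other end stood Vldlr (-0.876), Scap (-0.824), Npc1 (-0.817) and the exporter Abcg1 (-0.809). Without Akita library 4 the values were 0.773 for Sc4mol, 0.765 for Acat2, 0.854 for Tm7sf2 and 0.711 for Stard4. They were then 0.509 for Sc5d, -0.526 for Ggps1, -0.794 for Vldlr, -0.646 for Scap, -0.667 for Npc1 and -0.746 for Abcg1.

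The rest of the pathway was read from 47 other genes: 15 of synthesis, 9 of regulation, 12 of uptake and transport and 11 of efflux and oxysterols, all tested. In Akita vs WT, 6 of the 47 rose and 1 fell, where 3.96% of all genes rose and 3.68% fell. Of the synthesis enzymes 1 of 15 rose, Ggps1, which makes the geranylgeranyl donor (log2 difference 0.38 ± 0.09, adjusted p = 0.0236, edgeR). Of the regulators 2 of 9 rose, Srebf1 (0.86 ± 0.21, adjusted p = 0.0252), which encodes the lipogenic SREBP-1, and Scap (0.46 ± 0.14, adjusted p = 0.0496), the SREBP escort. Of the uptake and transport genes 3 of 12 rose, Npc1 (0.56 ± 0.15), which exports cholesterol from lysosomes, Scarb1 (0.54 ± 0.14), the HDL receptor, and Vldlr (0.42 ± 0.13), while the endocytic receptor Lrp1 fell by 1.15 ± 0.31 on the log2 scale (adjusted p of these 4 from 0.0293 to 0.0482, edgeR). None of the 11 efflux genes passed (0 of 11 by edgeR). All 7 calls were lost without Akita library 4 (adjusted p from 0.0686 to 0.147, with the same sign), without WT library 1 or without WT library 2, with reads outside exons as a covariate and in the edgeR fit of these 2 groups alone. Over all genes, calls in these fits were 234 of 16197 without Akita library 4, 0 without either WT library, 0 with the covariate and 148 of 15334 with 2 groups. The covariate can hardly be separated from genotype here. DESeq2 called 10 of the 47 higher and 1 lower, against 2056 of 15849 genes in all. Scap shares 18.9% and Ggps1 7.11% of exon bases with another gene, so those counts are uncertain.

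Srebf1 shows the pattern. It was 92.6, 111 and 88.9 CPM in WT and 178, 156, 121 and 251 CPM in Akita, the highest value again in library 4, with no overlap. In Akita + NACET it was 163, 112, 119, 110 and 88.7 CPM, and it fell by 0.58 ± 0.18 against Akita on the log2 scale (adjusted p = 0.0494, edgeR), the only one of the 47 genes called there by edgeR, where 4.51% of all genes rose and 5.14% fell. DESeq2 called 2 of the 47 higher and 4 lower there, against 2331 of 16372 genes in all. Without Akita library 4 the Srebf1 value was -0.36 (adjusted p = 0.184, edgeR), and its edgeR call held under 7 of 19 alternatives. In WT + NACET vs WT 0 of the 47 were called by edgeR.

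Other pathway genes did not pass in Akita vs WT. Dhcr7, the last enzyme of one branch of sterol synthesis, had a log2 difference of 0.08 ± 0.10 (adjusted p = 0.625, edgeR). The exporter Abca1 had 0.50 ± 0.18 (adjusted p = 0.0780), and the lipoprotein gene Apoe -0.25 ± 0.31.

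**Figure D4:**
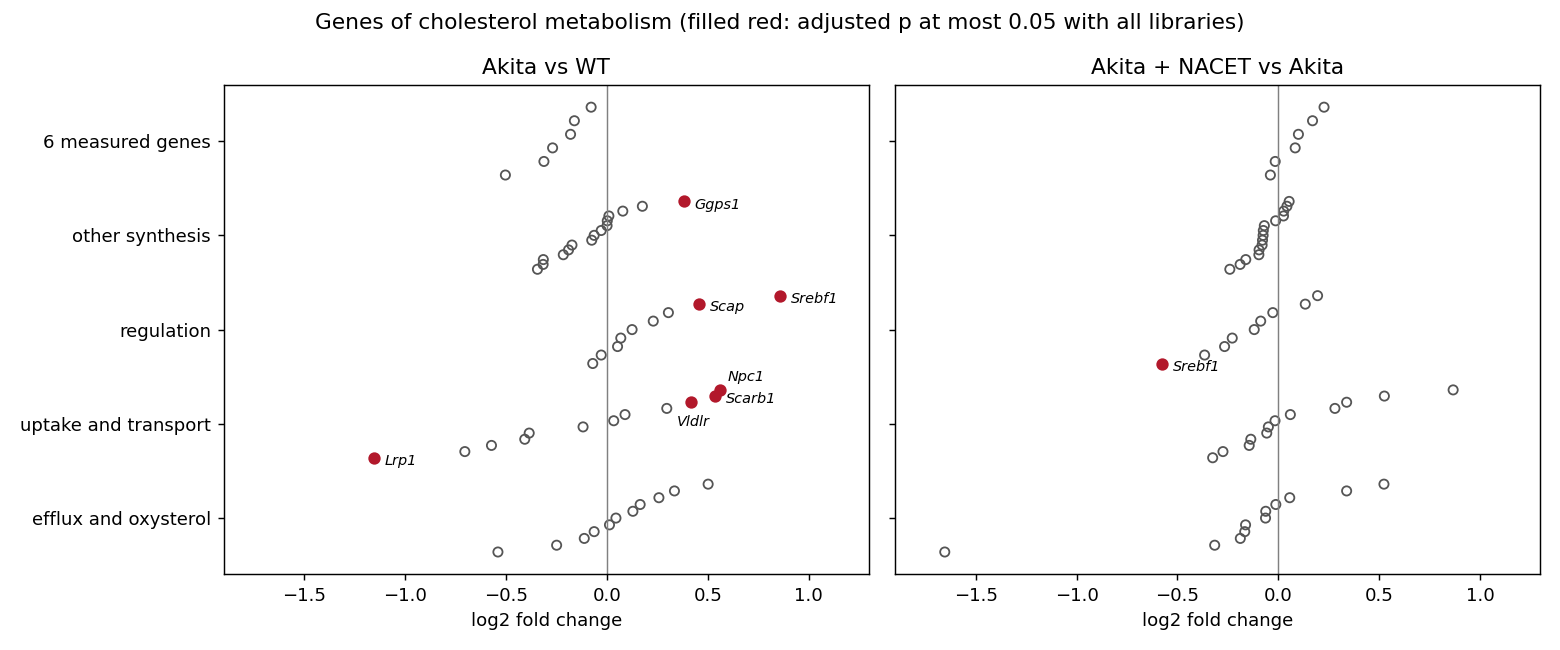
Fitted log2 fold change (x axis) of the 6 measured genes and of 47 other genes of cholesterol metabolism by list (y axis, spread within a list by rank), in Akita vs WT and Akita + NACET vs Akita. Filled red points passed the test with all libraries, 7 on the left and 1 on the right, and are named; the 6 measured genes are open in both.

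In Akita + NACET vs WT + NACET, 8 of the 47 were called, against 6.01% of all genes higher and 7.26% lower. These genes, and those of the interaction, were chosen after their values were seen. The 4 that were lower were the late sterol enzymes Nsdhl (-0.47), Ebp (-0.39) and Hsd17b7 (-0.34) and the mevalonate enzyme Pmvk (-0.24 on the log2 scale). The 4 that were higher were Lss, which forms lanosterol (0.24), Abca1 (0.49), Prkaa2, a catalytic subunit of AMPK (0.37), and the ubiquitin ligase gene Mylip (0.26). Adjusted p-values of the 8 ran from 0.00314 to 0.0411 (edgeR). The 6 measured genes stood between these values, with Cyp51 at 0.06 and Sqle at -0.13. For the interaction, 5 of the 47 were called, 2 positive and 3 negative, against 10.1% and 10.2% of all genes. Cyp27a1 (0.94 ± 0.32) and Prkaa2 (0.39 ± 0.13) were positive, and Mbtps1 (-0.42 ± 0.13), Ggps1 (-0.41 ± 0.12) and Ebp (-0.39 ± 0.12) negative, with adjusted p from 0.0218 to 0.0433 (edgeR). With reads outside exons as a covariate edgeR called 0 of the 47 genes in Akita + NACET vs WT + NACET, 0 of these 5 interaction calls remained, and Cyp27a1 turned to -0.07. Of all 16183 genes, that fit called 194 in Akita + NACET vs WT + NACET and 17 in the interaction.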

How the data were processed

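Per the study's methods, the authors built mRNA-seq libraries with a TruSeq kit, read them single end, aligned the reads to mm9 with TopHat2 2.1.0 and counted them over exons per gene with HTSeq 0.11.2, without regard to strand (versions per the submitters' processing notes). The deposited values are raw read counts per gene. Reads aligned to several places were left out by that counting. Groups came from the labels. As in the methods, ribosomal RNA genes were removed (206 names, 0.977% of counts), and the unnamed entry (0.0054%) and summary entries were left out.

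edgeR 4.0.16 (R 4.3.3) was fitted to all 4 groups at once and tested by quasi-likelihood, with TMM scaling and the default filter (minimum count 10, minimum total 15). Of the names, 16183 were tested, with Benjamini-Hochberg adjustment over all of them and calls at an adjusted p of at most 0.05 with no minimum fold. The SE follows from the F statistic. CPM were computed on TMM-scaled library sizes. Genes had a common dispersion of 0.0347. Counts per gene differed between replicates beyond sampling noise in all 34 pairs (mean chi-square 4.82 to 55.0), so each library was counted once. DESeq2 1.42.0, the tool of the study, was an alternative, beside other scaling, filters, covariates and leaving out each library; the tests were tried on simulated data. Coordinates are mm9, from an annotation holding 33643 of the names (96.1%); promoter windows are RefSeq on GRCm38.p6.

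Named were the 7 genes, every listed gene called in Akita vs WT, Akita + NACET vs Akita or WT + NACET vs WT, Dhcr7, Scap, Abca1, Apoe and Srebf1, and the 8 genes of most like profile (log2 CPM, prior count 2). Other cholesterol genes named for their correlation with that profile were outside this rule and were picked with their values known. Some genes of the pathway are not reported here. The genes and lists were chosen with earlier results of these data known.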

Additional observations from a re-analysis of the deposited data

Results flagged for a closer look

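Dixon's test was applied to the levels of 25 genes in the 3 groups of 4 to 6 libraries, 75 tests in all, of which chance marks about 1 in 20. Of the 6 measured genes, Fdft1 in Akita library 4 (52.5 CPM) and Insig1 in WT + NACET library 1 (68.9 CPM) lay far below the rest of their groups. Of the other cholesterol genes, Scap in Akita library 4 (167 CPM), in WT + NACET library 1 (100 CPM) and in Akita + NACET library 2 (78.6 CPM), Lss in WT + NACET library 2 (54.6 CPM) and Mbtps1 in WT + NACET library 1 (125 CPM) lay apart. Akita library 4 and WT + NACET library 1 account for 5 of these 7 values.

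The interaction term of edgeR, which asks whether the effect of NACET differed between Akita and WT, called 5 of the 47 other cholesterol genes. On the log2 scale the values were 0.94 for Cyp27a1, 0.39 for Prkaa2, -0.41 for Ggps1, -0.39 for Ebp and -0.42 for Mbtps1. Of these 5 calls, 4 remained without Akita library 4 and 0 with reads outside exons as a covariate. With that covariate the interaction called 17 of all 16183 genes. Without the covariate and with all libraries, the interaction called 20.3% of all genes, and 0 of the 6 measured genes.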

How the results depend on the processing

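The count of 0 calls among the 6 genes was the same under DESeq2 size factors, DESeq2, fits of 2 groups, no filter, a mean count of at least 50, ribosomal RNA genes kept and a covariate for reads outside exons, also with Akita library 4 left out together (chosen after seeing the data). Leaving out each library gave 0 to 1 calls in Akita vs WT (1 without WT replicate 3, Srebf2, and 1 without Akita replicate 2, Sqle) and 0 to 1 in the interaction (1 without WT replicate 3, Srebf2); the cause was not tested. In the other comparisons it gave 0. Deviations of same-numbered libraries correlated at -0.332 to 0.345, and in no comparison was every pair over 0.1, so the numbers were not taken as pairs; with the replicate block edgeR called 0 of the 6 genes in each comparison, 0 of the 47 in Akita vs WT and in Akita + NACET vs Akita, and of all genes 507 in Akita vs WT and 219 in Akita + NACET vs Akita, where it had called 1237 and 1562. Over all genes, Akita vs WT gave 0 calls without WT replicate 1 or 2, 234 without Akita replicate 4 and 2056 by DESeq2. By Spearman's rho 4 of the 8 most like genes remained. Cyp27a1 in the interaction turned to -0.07 with the covariate and to -0.096 with the covariate and without Akita library 4. Depth limits Idi1 most, with 63 counts at the lowest.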
